A study of Mus musculus with 10 samples.

Results

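Endothelial genes are those by which the cells that line blood vessels are recognized. The 10 described here were given by symbol, namely *Cdh5*, *Pecam1*, *Kdr*, *Tek*, *Tie1*, *Flt1*, *Emcn*, *Esam*, *Egfl7* and *Eng*, out of 19937 genes with a probe set of their own on the Affymetrix mouse Gene 1.0 ST array. Each of the 10 has 1 such probe set, so no choice among probe sets was needed. They were measured on 3 arrays of sorted neural crest progenitors (NCPs) and 7 arrays of total embryo RNA. The NCPs are Venus-positive cells, labelled E13, sorted from the dissociated lower urogenital tract of fetuses of the C3Fe.Tg(*Sox10*-HIST2H2BE/Venus)ASout line, in which *Sox10* regulatory sequences drive a nuclear fluorescent protein. The dissection took in the vessels that flank the bladder, and fetuses were pooled. The total embryo RNA is of unstated stage and genotype, comes from all tissues, and was not sorted. Values are the deposited log2 values of robust Multi-Array Average (RMA), and a difference of 1 is a doubling.

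Endothelial cells hold to each other through VE-cadherin (*Cdh5*), PECAM-1 (*Pecam1*) and ESAM (*Esam*), which sit at or near their junctions. Their growth is governed by vascular endothelial growth factor (VEGF), which signals mainly through the receptor VEGFR2 (*Kdr*), while VEGFR1 (*Flt1*) binds VEGF tightly and restrains it. The receptor TIE2 (*Tek*) and its partner TIE1 (*Tie1*) take angiopoietin signals that stabilize vessels, endoglin (*Eng*) is a co-receptor for bone morphogenetic proteins, *Emcn* encodes the surface sialomucin endomucin, and *Egfl7* encodes a secreted protein of the vessel wall. The neural crest lineage that *Sox10* marks gives rise to neurons, glia and, in the study's cultures, myofibroblasts, but not to endothelium. Several of the 10 genes are also active elsewhere, *Pecam1* in platelets and leukocytes and *Eng* in mesenchyme and macrophages.

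Members of this group share ETS-family transcription factors as regulators, and 7 of the 10 had a promoter sequence in RefSeq (GRCm38.p6), in windows of 250 bases before to 50 after a start site. Of these 7, *Emcn*, *Kdr*, *Tek*, *Egfl7* and *Eng* were lower in NCPs, and *Flt1* and *Tie1* were not called. Shown are the 2 not called and 3 of the 5 lower, *Tek* among them as the one with neither motif, with matches to the ETS letters AGGAAG and CCGGAA on either strand in capitals. The motifs share the core GGAA, which can match only 1 of them at a time on a strand.
*Emcn*, chr3:137340828-137341127, plus strand: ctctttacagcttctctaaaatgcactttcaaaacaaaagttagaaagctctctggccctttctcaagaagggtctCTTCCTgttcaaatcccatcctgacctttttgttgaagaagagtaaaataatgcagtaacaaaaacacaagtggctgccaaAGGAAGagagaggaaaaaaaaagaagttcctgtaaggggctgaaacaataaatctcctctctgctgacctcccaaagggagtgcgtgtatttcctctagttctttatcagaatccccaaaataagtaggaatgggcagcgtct
*Kdr*, chr5:75978406-75978705, minus strand: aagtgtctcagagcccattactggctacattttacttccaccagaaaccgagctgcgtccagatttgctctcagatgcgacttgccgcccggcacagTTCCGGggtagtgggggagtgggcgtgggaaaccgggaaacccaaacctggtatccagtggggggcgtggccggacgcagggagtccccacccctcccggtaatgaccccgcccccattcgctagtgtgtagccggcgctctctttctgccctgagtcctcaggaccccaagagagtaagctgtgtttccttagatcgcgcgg
*Tek*, chr4:94739039-94739338, plus strand: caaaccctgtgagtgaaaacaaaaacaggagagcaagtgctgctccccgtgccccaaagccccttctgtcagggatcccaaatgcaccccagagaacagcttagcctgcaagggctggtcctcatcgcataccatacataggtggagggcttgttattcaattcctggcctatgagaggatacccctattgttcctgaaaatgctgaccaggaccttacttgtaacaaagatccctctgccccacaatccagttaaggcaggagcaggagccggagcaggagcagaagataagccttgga
*Flt1*, chr5:147725962-147726261, minus strand: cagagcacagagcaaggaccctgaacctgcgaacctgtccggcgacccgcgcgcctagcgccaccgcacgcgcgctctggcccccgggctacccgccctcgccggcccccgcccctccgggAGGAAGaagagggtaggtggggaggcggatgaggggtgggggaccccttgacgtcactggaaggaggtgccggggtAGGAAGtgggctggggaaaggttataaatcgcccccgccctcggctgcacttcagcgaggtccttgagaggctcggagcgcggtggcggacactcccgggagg
*Tie1*, chr4:118489800-118490099, minus strand: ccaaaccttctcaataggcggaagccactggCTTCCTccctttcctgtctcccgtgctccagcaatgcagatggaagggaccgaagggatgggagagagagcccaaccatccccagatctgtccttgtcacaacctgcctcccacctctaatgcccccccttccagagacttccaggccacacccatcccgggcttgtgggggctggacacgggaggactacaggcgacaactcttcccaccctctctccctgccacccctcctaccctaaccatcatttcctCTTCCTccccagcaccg
AGGAAG was found in 6 of the 9 promoter windows of these genes, those of *Egfl7*, *Emcn*, *Eng*, *Flt1* and *Tie1*, and in 35.4% of all 32851 promoter windows. CCGGAA was found in 1 of the 9, that of *Kdr*, and in 14.9% of all. Genes that were lower and genes that were not called both had windows with AGGAAG. A genome-wide share of this size makes a single match a description of the letters only.

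The 3 NCP arrays differed from the total embryo arrays in scale, and 1 of them stood apart. Over the 28192 probe sets, values spread with a standard deviation (SD) of 1.07, 0.97 and 1.13 on NCP arrays 1, 2 and 3, against 1.78 to 1.91 on the total embryo arrays. Genes of olfactory and vomeronasal receptors (1190 measured), which few tissues outside the nose express, gave a measured background, and the housekeeping median exceeded their median by 3.27, 0.61 and 4.31 on NCP arrays 1, 2 and 3, against 6.78 to 7.26 on the total embryo arrays. NCP array 2 therefore had the smallest distance between housekeeping genes and background. The sample titles carry 2 numbers among the total embryo arrays, on 3 and 4 arrays, and the labels do not say whether arrays with 1 number carry the same RNA. Only total embryo array 1 shares the last part of its title with the NCP arrays. *Sox10* was at 7.95, 7.14 and 7.60 on the NCP arrays, all above its total embryo values (lowest 6.38, median 6.59, highest 6.65), though centring each array on the receptor genes put its fold change at −0.69 (log2). As deposited, 5 of 10 neural crest and autonomic genes measured rose while 3 fell (over all probe sets 39.6% rose and 27.5% fell), and 2 were higher and 2 lower after level adjustment. Among those that fell was *Erbb3*, a neuregulin receptor of crest and glia (−1.20).

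Of the 10 endothelial genes 7 were lower in NCPs than in total embryo by limma with Benjamini-Hochberg adjustment (adjusted p under 0.05), where 27.5% of all probe sets were lower, and 0 were higher, where 39.6% of all were higher. Called means a limma adjusted p past this threshold throughout. *Cdh5*, *Pecam1*, *Kdr*, *Egfl7*, *Emcn*, *Eng* and *Tek* fell, while *Flt1*, *Tie1* and *Esam* were not called. The calls of *Tek* and *Eng* were lost with the total embryo title number as a random block. The median log2 fold change of the 10 genes was −0.90, against 0.23 for all probe sets. The NCPs were sorted by the *Sox10* reporter and the total embryo was not sorted. In RNA of many cells, fewer endothelial cells and less RNA per endothelial cell cannot be told apart. The share of endothelial cells was not measured in either group. For 5 genes (*Cdh5*, *Pecam1*, *Kdr*, *Emcn* and *Tek*) the highest NCP value was under the lowest total embryo value, which held for 21.5% of all probe sets, and for 0 genes did all NCP values lie above, which held for 31.8%.

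**Figure D1:**
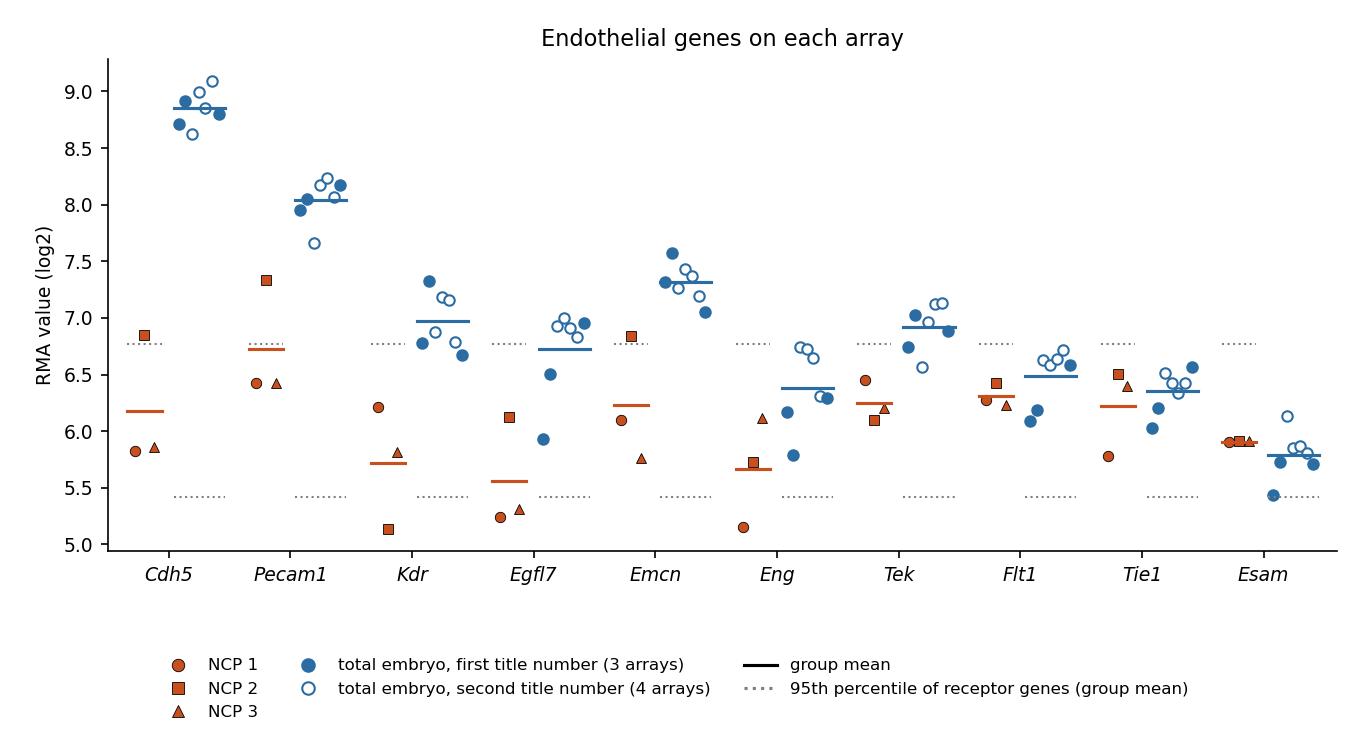
RMA value (log2, vertical axis) of the 10 endothelial genes on each NCP array (orange, a symbol per array) and each total embryo array (blue, filled for the first title number and open for the second), with group means as solid lines and the group mean of the 95th percentile of receptor genes as dotted lines. The separation is widest for *Cdh5*, and the values of *Flt1*, *Tie1*, *Esam*, *Egfl7* and *Eng* overlap between the groups.

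Among the junction genes, *Cdh5* had the widest gap. It was at 5.83, 6.85 and 5.86 on NCP arrays 1, 2 and 3, against a lowest value of 8.62, a median of 8.85 and a highest value of 9.09 on the total embryo arrays. NCP array 2 was the highest of the NCP arrays, and even there *Cdh5* lay below every total embryo array. On the log2 scale the fold change was −2.68 (standard error, SE, 0.22, limma adjusted p = 5.35e-07). The exact permutation test over the 10 arrays gave p = 0.00833, the smallest it allows (two-sided), as for all 5 genes without overlap. This test takes the 7 total embryo arrays, which carry 2 title numbers, as separate. The fold change of *Cdh5* was −3.01 without NCP array 2.

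*Pecam1*, like *Cdh5*, was highest among the NCP arrays on array 2, at a smaller distance from total embryo. Its values were 6.43, 7.33 and 6.42 on NCP arrays 1, 2 and 3, and ran from 7.66 to 8.24 (median 8.07) in total embryo. The difference of means on the log2 scale was −1.32 (SE 0.22, limma adjusted p = 1.48e-04). *Pecam1* is the only one of the 10 that exceeded the 95th percentile of receptor genes on any NCP array, on array 2 (percentile 98.4). *Esam*, the other adhesion gene, did not separate the groups, with values of 5.91 on each of the 3 NCP arrays and from 5.43 to 6.14 (median 5.81) in total embryo. Its log2 fold change of 0.12 (95% interval −0.24 to 0.48, limma adjusted p = 0.55) did not pass.

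Of the VEGF receptor genes, *Kdr* was called and *Flt1* was not. *Kdr* was at 6.21, 5.14 and 5.81 on NCP arrays 1, 2 and 3, against 6.67 to 7.32 (median 6.88) in total embryo. Here array 2 was the lowest NCP array, the opposite of *Cdh5*, and the groups did not overlap. For *Kdr* the difference of means was −1.25 (SE 0.23, limma adjusted p = 4.03e-04). *Flt1* was at 6.28, 6.43 and 6.23 on NCP arrays 1, 2 and 3, against 6.09 to 6.72 (median 6.59) in total embryo. All 3 NCP values lay inside the total embryo range, and the difference of means was −0.18 (95% interval −0.57 to 0.21, limma adjusted p = 0.391). Whether *Kdr* and *Flt1* differ in their change was not tested.

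Of the angiopoietin receptor genes, *Tek* was called and *Tie1* was not, and the difference between their changes was not tested. *Tek* was at 6.45, 6.10 and 6.21 on NCP arrays 1, 2 and 3, against 6.56 to 7.13 (median 6.97) in total embryo, so its groups did not overlap although NCP array 1 came close. The difference of means was −0.67 (SE 0.17, limma adjusted p = 0.00401). *Tie1* was at 5.78, 6.50 and 6.40 on NCP arrays 1, 2 and 3, against 6.03 to 6.56 (median 6.43) in total embryo. Only NCP array 1 lay below the total embryo range, and the difference of means was −0.13 (95% interval −0.55 to 0.28, limma adjusted p = 0.558).

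*Emcn*, *Egfl7* and *Eng* completed the group. *Emcn* was at 6.10, 6.84 and 5.76 on NCP arrays 1, 2 and 3, against 7.05 to 7.58 (median 7.32) in total embryo, with no overlap. It fell by 1.08 on the log2 scale (SE 0.22, limma adjusted p = 7.21e-04). *Egfl7* was at 5.24, 6.12 and 5.31 on NCP arrays 1, 2 and 3, against 5.93 to 6.996 (median 6.91) in total embryo. The overlap of *Egfl7* came from total embryo array 1, its lowest, which NCP array 2 exceeded, and the difference of means was −1.17 (SE 0.26, limma adjusted p = 0.00165). *Eng* was at 5.15, 5.72 and 6.12 on NCP arrays 1, 2 and 3, against 5.79 to 6.74 (median 6.31) in total embryo. NCP array 3 lay inside that range, and the difference of means was −0.72 (SE 0.25, limma adjusted p = 0.0221). *Eng* did not pass without NCP array 1, where it was −0.46 (limma adjusted p = 0.129).

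By level, the endothelial genes lay within the range of the receptor genes in NCPs. Averaged over the NCP arrays, all 10 lay below the 95th percentile of receptor genes, from a mean percentile of 52 for *Egfl7* to 93.1 for *Pecam1*. So did the median of all probe sets, at 6.155, 6.139 and 6.149 on NCP arrays 1, 2 and 3. The 95th receptor percentile was 6.772, 6.88 and 6.648 on these arrays. In total embryo the mean percentile was above 95 for all 10, the lowest being *Esam* at 97.4, and only *Esam* on array 1 fell below it. The number of the 10 genes above the 95th percentile was 0, 1 and 0 on NCP arrays 1, 2 and 3, against 9 on total embryo array 1 and 10 on each of the other 6. The fold changes thus set values within the background range in NCPs against values above it in total embryo. This was not particular to endothelial genes. Of the housekeeping genes, *Tbp*, *Sdha*, *B2m*, *Ywhaz* and *Hprt* lay within that range in NCPs (mean percentiles 77.4, 72.9, 81.5, 83.4 and 93.8). *Actb*, *Ppia* and *Pgk1* lay above it (99.7, 100 and 100). *Pdgfrb*, *Rgs5*, *Kcnj8* and *Anpep*, genes of pericytes, which wrap small vessels, also lay within the receptor range in NCPs (mean percentiles 61.3, 72, 30.4 and 84.3).

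The change of an average gene depended on its total embryo level, so each gene was also set against the 200 genes closest to it in mean total embryo level. This comparison is a description with no test. *Egfl7* (difference from the median of its neighbours −0.79, percentile 4.5 among them), *Eng* (−0.64, percentile 6), *Kdr* (−0.64, percentile 9.5) and *Cdh5* (−0.57, percentile 17) had lower changes than their neighbours. For *Cdh5* the neighbours had themselves a median log2 fold change of −2.11, while for *Esam* the neighbours had a median of 0.31. *Emcn* (−0.17), *Tek* (−0.13), *Tie1* (−0.11), *Esam* (−0.20) and *Flt1* (−0.032) lay close to their neighbours, at percentiles from 30.5 to 48.5. *Pecam1* was the only one above its neighbours (0.24, percentile 65.5). In all, 9 of the 10 lay below their neighbours, with a median difference of −0.18, and with 1 title number used to find neighbours and the other as control the median was −0.38 or −0.19. Without NCP array 1, 2 or 3 the difference of *Cdh5* was −0.27, −1.01 or −0.25.

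**Figure D2:**
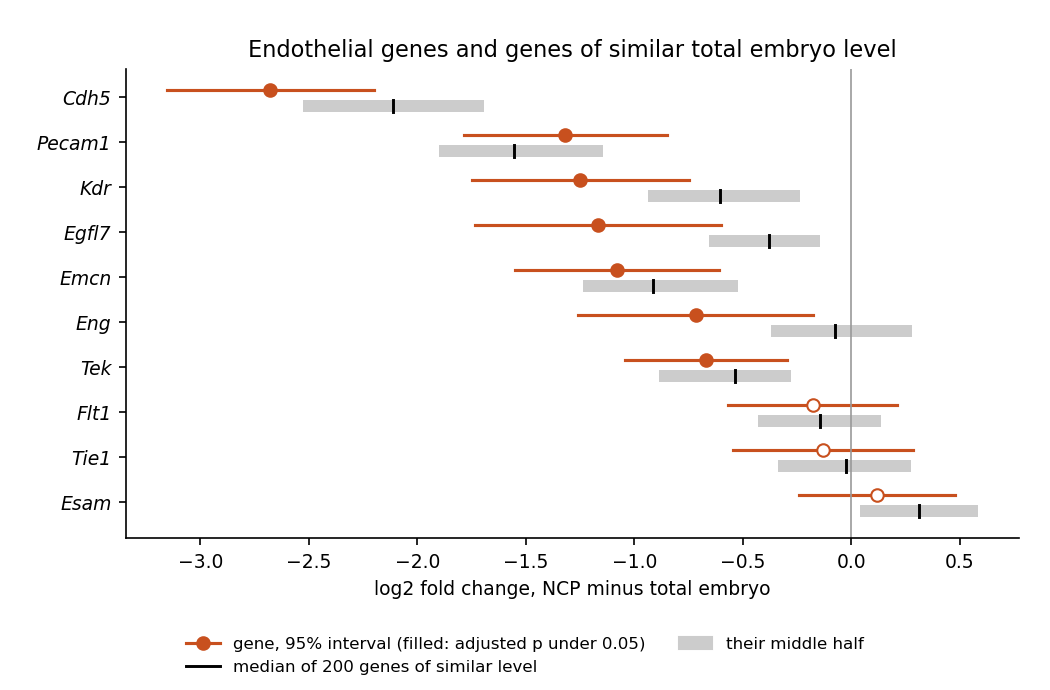
Log2 fold change of each endothelial gene (NCP minus total embryo, horizontal axis) with its 95% interval from limma, above the median (black line) and the interquartile range (gray bar) of the 200 genes of similar total embryo level. *Cdh5*, *Kdr*, *Egfl7* and *Eng* lie left of the gray bar, while *Pecam1*, *Emcn*, *Tek*, *Flt1*, *Tie1* and *Esam* lie within it.

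The NCP arrays did not place the genes alike. On array 2, *Pecam1*, *Emcn* and *Cdh5* were above their neighbours by 0.99, 0.46 and 0.44, while on arrays 1 and 3 all 3 genes were below them, *Cdh5* at −0.90 and −1.04 from their median. *Egfl7* stood at −1.10 and −1.13 from its neighbours on arrays 1 and 3 and at −0.12 on array 2. *Kdr* had its lowest difference on array 2 (−1.13, with −0.30 on array 1 and −0.63 on array 3). Array 2 was also the array with the smallest distance between housekeeping genes and background, and the part of that distance in these differences was not tested. Without array 2 all 10 genes lay below their neighbours (median −0.34), and without array 1 or array 3 it was 7 of 10.

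**Figure D3:**
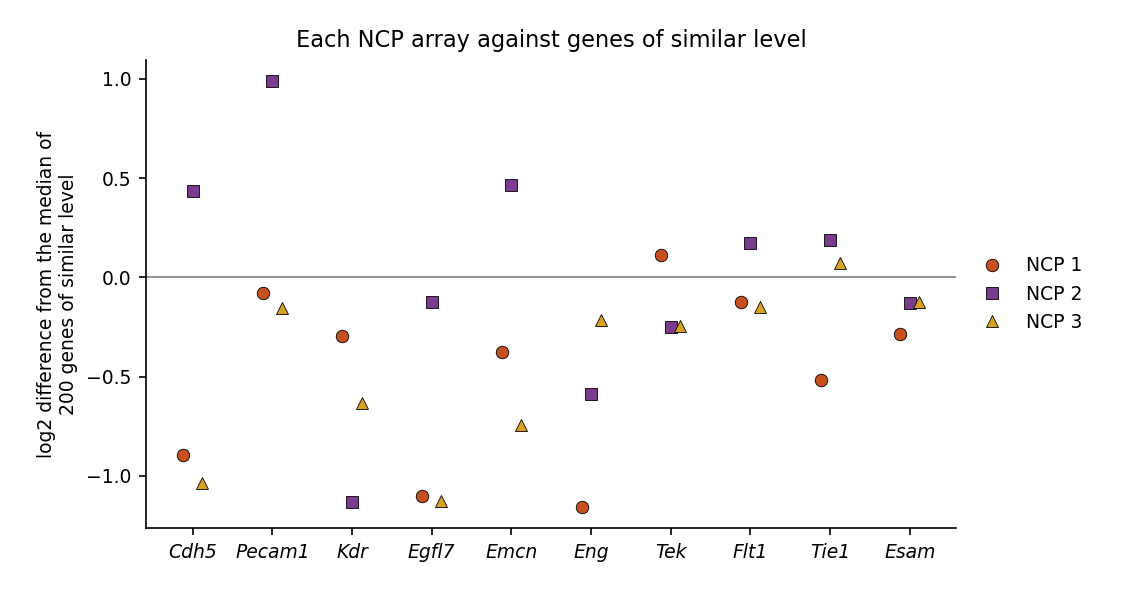
Difference of each endothelial gene on each NCP array from the total embryo mean, less the median of the same difference over 200 genes of similar total embryo level (log2, vertical axis). NCP array 2 is the highest of the 3 for *Cdh5*, *Pecam1*, *Emcn*, *Egfl7*, *Tie1* and *Flt1*, and the lowest for *Kdr* and, narrowly, *Tek*.

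Subtracting from each array its trend on total embryo level (level adjustment) left 1 of the 10 genes lower by limma, *Egfl7* (−0.81, adjusted p = 0.0459), where 8.29% of all probe sets were lower, and 0 higher, where 10.3% were. *Kdr* (−0.67, adjusted p = 0.0538), *Eng* (−0.66, adjusted p = 0.0813) and *Cdh5* (−0.65, adjusted p = 0.118) did not pass, and *Pecam1* turned to 0.19 (adjusted p = 0.627). With each array centred on the receptor genes, the median of all probe sets was −1.46 and 21951 of 28192 were lower. All 10 genes were lower in this scaling, *Esam* (−1.57) among them. After cyclic loess 4 genes were lower, namely *Cdh5*, *Kdr*, *Egfl7* and *Eng*, where 4506 of 28192 probe sets were. With title number as a random block (estimated correlation 0.675) 5 were lower, where 5684 of 28192 probe sets were. *Tek* (−0.67) and *Eng* (−0.69) did not pass there. With total embryo arrays averaged per title number 3 were lower, namely *Cdh5*, *Pecam1* and *Kdr*, where 4183 of 28192 probe sets were. Against the single array that shares its title ending with the NCP arrays, *Cdh5* was at −2.54, the lowest of the 10. *Tie1* (0.20), *Flt1* (0.22) and *Esam* (0.48) were above 0 against it, and the rest of the 10 were below 0. At that array *Egfl7*, *Flt1*, *Tie1* and *Esam* had their lowest total embryo value. By mean, the first title number was lower than the second for *Eng* by 0.52, for *Egfl7* by 0.45 and for *Flt1* by 0.36. For *Emcn* they differed by under 0.01. Total embryo array 7 carries the first number, yet *Egfl7* (6.953) and *Flt1* (6.588) were there at levels seen with the second. *Eng* on array 7 (6.297) was just under its lowest value with the second (6.309).

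**Figure D4:**
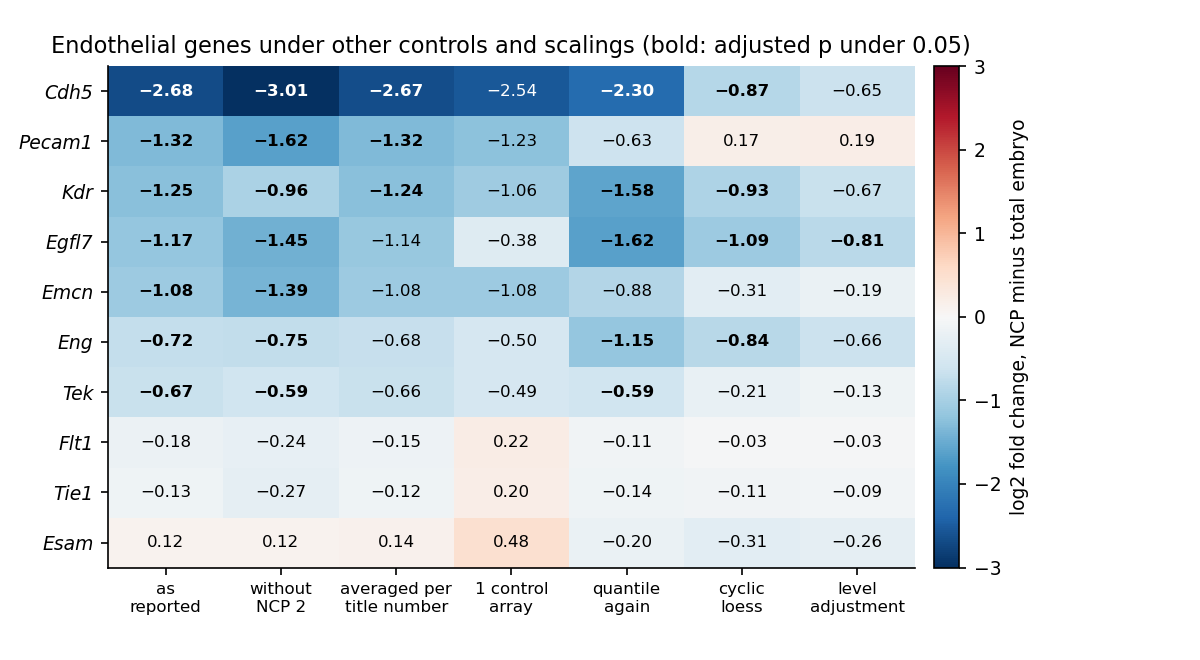
Log2 fold change (NCP minus total embryo) of the 10 endothelial genes under the reported fit and 6 alternatives, colored from blue (lower in NCPs) to red (higher in NCPs), with values in bold where limma gave an adjusted p under 0.05. *Cdh5*, *Kdr*, *Egfl7* and *Eng* keep values below −0.6 after quantile normalization again, cyclic loess and level adjustment, whereas *Pecam1* turns above 0 after cyclic loess and level adjustment.

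*Egfl7* holds a microRNA gene, *Mir126a*, and the array has a probe set for it, which was looked at after the values of *Egfl7* were seen. The mature microRNA from its 3′ arm is shown with the seed (bases 2 to 8) in capitals, because this microRNA is known to strengthen VEGF signaling in endothelium.
mmu-miR-126a-3p, chr2:26591402-26591423, plus strand: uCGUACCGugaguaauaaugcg
The probe set of *Mir126a* was at 5.54, 5.60 and 5.93 on NCP arrays 1, 2 and 3, against 2.55 to 2.89 (median 2.74) in total embryo. The difference was 2.97 on the log2 scale (SE 0.16, limma adjusted p = 2.33e-08), opposite in sign to that of its host gene. Its level lay within the receptor range in both groups, at mean percentiles of 59.1 in NCPs and 8.74 in total embryo. After level adjustment the difference was 0.52 (adjusted p = 0.0469). *Mir126a* is thus not shown to be above background in either group, and the probe set does not separate the precursor from the mature form.

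The other vascular genes were described by 7 lists with 93 genes measured that are not among the 10. Of these, 39 were lower in NCPs, 10 were higher and 44 were not called, with a median log2 fold change of −0.27. After level adjustment 8 were lower and 6 higher. With arrays centred on the receptor genes 90 were lower and 0 higher, and *Pgf*, *Angpt4*, *Smad6*, *Bmp10*, *Unc5b* and *Notch4*, described as higher, turned below 0. Over all probe sets the shares were 27.5% lower and 39.6% higher as deposited and 8.29% and 10.3% after level adjustment, and receptor centring made 21951 of 28192 lower and 1348 higher.

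Of 27 other endothelial junction and surface genes measured, 13 fell, 1 rose and 13 were not called (median −0.32). Of all probe sets 27.5% fell and 39.6% rose. *Cd93*, a C-type lectin receptor of endothelium and myeloid cells, was at 6.15, 4.66 and 4.88 on the NCP arrays and from 8.26 to 8.67 (median 8.52) in total embryo, giving a fold change on the log2 scale of −3.28 (−1.45 and still past the test after level adjustment). *Cd34*, a sialomucin of endothelium and blood progenitors, was at 6.79, 5.88 and 5.75 against 7.64 to 8.72 (median 8.31), a log2 fold change of −2.15. *Cd34* did not pass after level adjustment (−0.46). Of 16 endothelial transcription factor genes 6 fell and 1 rose (median −0.36). After level adjustment 0 did so, where 8.29% of all probe sets fell and 10.3% rose. The largest decreases without overlap of the groups were those of the ETS factor gene *Elk3* (−1.32) and the homeobox gene *Hhex* (−1.21), which stood at 0.043 and −0.25 after level adjustment.

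Among genes of VEGF ligands and co-receptors, with the receptor gene *Flt4*, 4 of 8 fell and 1 rose (median −0.53). Of all probe sets 27.5% fell and 39.6% rose. *Flt4* was not called (0.35, limma adjusted p = 0.0591, and −0.26 after level adjustment). Its NCP values all lay above its total embryo values, which held for 31.8% of all probe sets. *Pgf*, which encodes placental growth factor, a ligand of VEGFR1, rose. It was at 6.86, 7.46 and 6.13 on NCP arrays 1, 2 and 3, against 5.14 to 5.68 (median 5.23) in total embryo, with a difference of means of 1.49 (0.79 and still past the test after level adjustment), and its level lay within the receptor range in both groups (mean percentiles 92.4 and 93.3). *Nrp1*, which encodes a co-receptor for VEGF and semaphorins, fell (−1.84), with 7.58 on NCP array 2 and 5.63 and 5.70 on arrays 1 and 3, against 7.95 to 8.33 (median 8.16) in total embryo. *Vegfa* and *Vegfb*, ligand genes, were not called (−0.15 and −0.20) and were higher after level adjustment (0.63 and 0.68). *Vegfd*, a ligand gene of lymphatic growth, fell too (−1.53). After level adjustment *Nrp1* (−0.26) and *Vegfd* (−0.66) did not pass.

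In the angiopoietin pathway 1 of 7 genes fell, *Ptprb* (−1.28), which encodes a phosphatase that acts on TIE2, and 1 passed as higher, the ligand gene *Angpt4* (0.81), with levels within the receptor range in both groups (percentile 81.1 in NCPs, 94.8 in total embryo). The other 5, with the ligand genes *Angpt1* (0.21) and *Angpt2* (−0.19) among them, were not called, and after level adjustment 0 of the 7 were lower or higher. In the endoglin and ALK1 pathway 3 of 11 genes fell and 2 rose (median −0.10). For both pathways the shares over all probe sets were 27.5% lower and 39.6% higher. *Bmpr2*, which encodes the type II receptor for bone morphogenetic proteins, was at 4.91, 6.18 and 6.59 on the NCP arrays and from 9.45 to 9.73 (median 9.54) in total embryo, giving a fold change on the log2 scale of −3.68 (−1.40 and still past the test after level adjustment). *Smad6*, which encodes an inhibitor of this pathway, rose by 1.06, with values of 7.69, 6.77 and 7.13 on the NCP arrays and of 5.81 to 6.40 (median 6.16) on the total embryo arrays (0.93 and still past the test after level adjustment). *Smad5*, which encodes a signal transducer of this pathway, fell (−1.57) and stood at 0.080, not past the test, after level adjustment. *Bmp10*, a ligand gene, passed as higher (1.59) with levels within the receptor range in both groups (percentile 66.3 in NCPs, 68.1 in total embryo), and did not pass after level adjustment (0.22).

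Of 15 arterial, venous and lymphatic genes 6 fell and 4 rose (median −0.28), with 1 lower and 0 higher after level adjustment. Of all probe sets 27.5% fell and 39.6% rose, and 8.29% and 10.3% did so after level adjustment. *Aplnr*, which encodes the apelin receptor, and *Pdpn*, a gene of lymphatic endothelium and many other cells, had the largest decreases without overlap (−2.22 and −1.94), while *Unc5b* and *Notch4*, which encode receptors of arteries and sprouting vessels, rose (0.88 and 0.66). None of these 4 passed after level adjustment. *Unc5b* and *Notch4* lay within the receptor range in NCPs (mean percentiles 83.4 and 90.8), against percentiles of 95.1 and 98.5 in total embryo. Of 9 genes in the pericyte list 6 fell and 0 rose (median −0.65), with *Anpep* (−3.31) and *Des* (−2.41) lowest among those without overlap. *Des* is counted in the smooth muscle and mesenchyme list too, and the list also holds the ligand gene *Pdgfb*, which was not called. After level adjustment 2 of the 9 were lower, *Kcnj8* (−1.35) and *Anpep* (−1.03), while *Des* did not pass (−0.49).

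**Figure D5:**
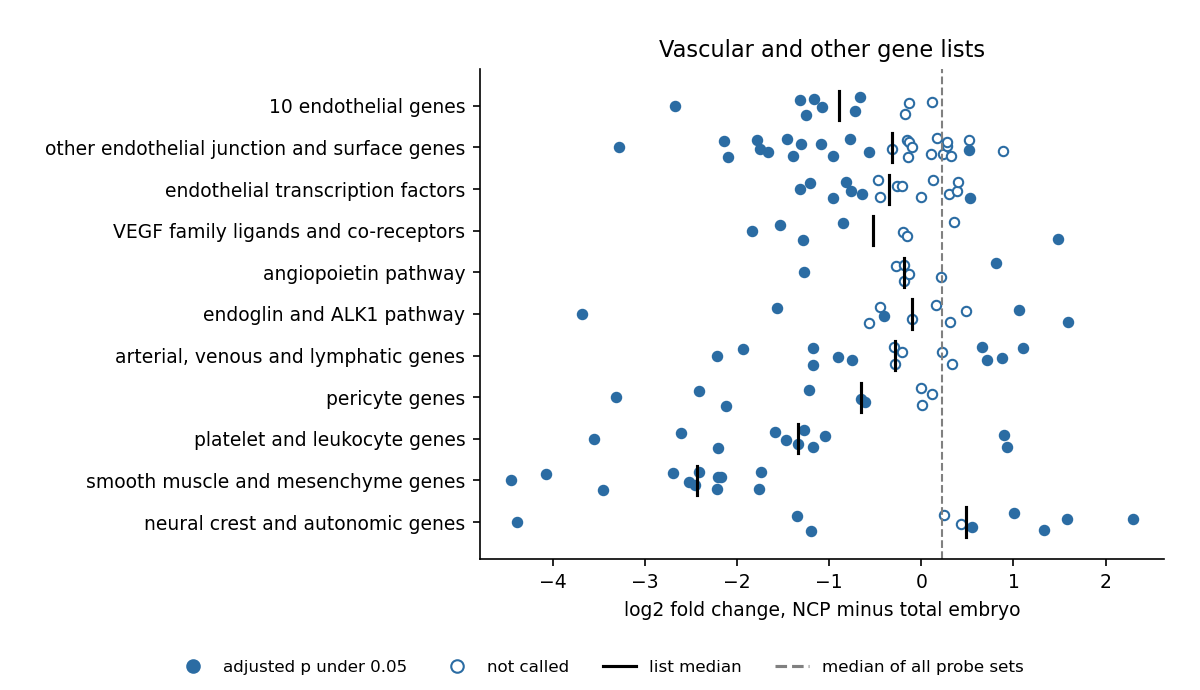
Log2 fold change (NCP minus total embryo, horizontal axis) of single genes in the 10 endothelial genes, the 7 other vascular lists and 3 lists of other cell types, filled where limma gave an adjusted p under 0.05, with list medians as black lines and the median of all probe sets dashed. The 10 endothelial genes have a median of −0.90, between those of pericyte genes (−0.65) and of platelet and leukocyte genes (−1.34).

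Genes of the other cell types that the dissected tissue or whole embryo could hold had list medians below 0 too. Of 11 platelet and leukocyte genes 9 were lower and 2 higher (median −1.34), and their mean level ran from 6.02 to 6.46 over the NCP arrays and from 7.33 to 7.69 over the total embryo arrays. Of the 11, 10 lay within the receptor range in NCPs by mean percentile, from 22.5 for *Fcer1g* to 91.9 for *Gp9*, with the defining genes *Ptprc* of leukocytes, *Csf1r* of macrophages and *Pf4* of platelets at 83.4, 69.9 and 69.1. *Tyrobp*, an adaptor gene of myeloid cells, was above it at 96.2, although lower than in total embryo (−2.61). The median of all probe sets itself lay under the 95th receptor percentile on every NCP array. The 2 higher genes were the platelet genes *Gp9* (0.90) and *Itga2b* (0.93). All 12 smooth muscle and mesenchyme genes were lower (median −2.43), with mean levels from 6.06 to 6.65 over the NCP arrays and from 8.74 to 9.19 over the total embryo arrays. Of 9 epithelium genes 6 were lower and 0 higher (median −1.67), of 6 erythroid genes measured 2 were lower and 2 higher (median −0.085), and all 8 housekeeping genes measured were lower (median −2.14), where 27.5% of all probe sets were. After level adjustment 6 of 12 smooth muscle and mesenchyme genes (median −0.58), 2 of 11 platelet and leukocyte genes and 3 of 9 epithelium genes were lower. The share over all probe sets was then 8.29%. The mean level of the 10 endothelial genes ran from 5.94 to 6.29 over the NCP arrays and from 6.72 to 7.13 over the total embryo arrays. The part of leukocytes, platelets and mesenchyme in the total embryo levels of *Pecam1*, *Esam* and *Eng* was not tested.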

How the data were processed

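Per the labels, the authors normalized the arrays by RMA in Affymetrix Expression Console 1.1, and the deposited table holds log2 values for 10 arrays. Whether RMA was run on all 10 at once is not given in the sources used here. Control probe sets (6568 of 34760) were left out. The other 28192 were fitted with limma 3.58.1 in R 4.3.3 (moderated test, prior 4.65 degrees of freedom, prior SD 0.32) and adjusted by Benjamini-Hochberg over all of them, at a threshold of 0.05. Symbols came from GEO's platform annotation, which gives 21640 probe sets 1 symbol, 1321 several and 5231 none. A gene's probe set was the one with the highest mean over the 10 arrays among those with 1 symbol. Of 170 listed symbols 158 were measured.

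Members, lists and tests were chosen with earlier results of these data known. From each of the other lists, at most 2 higher and 2 lower genes were named, those that passed with no overlap of groups and had the greatest change. Genes outside this rule were named for their function after their values were seen. For level adjustment, a lowess curve (span 0.3) of an array's deviation from the total embryo mean, drawn on that mean, was removed. Promoters and microRNA sequences are from RefSeq (GRCm38.p6). The fits were tested on simulated data. Alternatives changed control arrays, blocks, scaling, prior, weights, filters and thresholds, and left out each array. The methods describe independent pools for the NCPs. Total embryo arrays with the same title number may be technical repeats, so p-values there measure the spread between arrays, whose number limits the precision. Figures were drawn with Python 3.11.15.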

Additional observations from a re-analysis of the deposited data

Results flagged for a closer look

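In the 7 total embryo arrays, 2 of 47 named genes had an array far from the other 6, where chance gives about 1 in 20. *Ptprb* was lowest on total embryo array 1 (6.78, median 7.25), with a gap to its nearest neighbour of 0.705 of the whole range. *Sox10* was lowest on total embryo array 2 (6.38, median 6.59), with a gap of 0.576 of the range. Both exceed Dixon's critical value for 7 arrays. None of the 10 endothelial genes exceeded it.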

How the results depend on the processing

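Of the 10 endothelial genes, 7 were lower in NCPs as reported, 4 against the control arrays of the title series of the NCP arrays, 0 against the control array with their title ending, 3 with total embryo arrays averaged per title number, 4 after cyclic loess, 1 after level adjustment, 10 with arrays centred on receptor genes, 5 with title number as a random block (*Tek* and *Eng* lost), and 5 to 7 under the other alternatives. None was higher under any alternative run. Leaving out 1 array gave 6 to 7 lower and 0 higher, with 6 (*Eng* lost) without NCP array 1. After cyclic loess *Pecam1* was at 0.17, and level adjustment put it at 0.19, while *Esam* turned to −1.57 with receptor centring. The median difference from genes of similar level was −0.18 as reported and −0.38 with neighbours found on the first title number and the change taken against the second, and −0.34 to −0.18 with 1 NCP array left out.

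Of all probe sets, 7747 were lower and 11158 higher (59% of calls higher). Counts were 691 and 364 against the array with the same title ending (34.5%), 4183 and 5761 with averaged title numbers, 4506 and 4777 after cyclic loess, 21951 and 1348 with receptor centring (5.79%), and 2336 and 2903 after level adjustment. Higher calls alone were 6370 after quantile normalization, 3075 with a filter at the 95th receptor percentile (28.9%), and 7219 with a log2 fold change beyond 1. With 1 array left out, 7371 to 7930 were lower and 10710 to 11119 higher. The median of all probe sets was 0.23, and 0.080 after quantile normalization, −0.0089 after cyclic loess, 0.11 with centred medians and −1.46 with receptor centring.

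Of the 93 other vascular genes, 39 were lower and 10 higher. Counts were 3 and 0 against the array with the same title ending, 21 and 2 with averaged title numbers, 90 and 0 with receptor centring, and 8 and 6 after level adjustment, with 23 lower after cyclic loess. Higher calls were 4 against the control arrays of the same title series, 6 against those of the other series, 6 with title number as a random block, 6 with array weights, 6 at an adjusted p of 0.01, and 4 with a log2 fold change beyond 1. With 1 array left out, 37 to 42 were lower and 8 to 15 higher. Receptor centring turned *Sox10* to −0.69, *Pgf* to −0.20, *Angpt4* to −0.88, *Bmp10* to −0.097, *Smad6* to −0.63, *Unc5b* to −0.81, *Notch4* to −1.03, *Hba-x* to −1.03, *Gp9* to −0.79 and *Phox2a* to −0.11. *Smad5* was at 0.027 after cyclic loess and at 0.080 with level adjustment, *Elk3* to 0.043 after level adjustment, and *Ednrb* to 0.30 after both. Where a setting used fewer control arrays, fewer samples entered the test, and otherwise the cause was not tested. Values within the receptor range limit what these arrays resolve in NCPs. No paired analysis was possible because the labels give the groups no shared replicate numbers.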
